A study of Drosophila melanogaster with 3 samples.

Results

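The genes examined were 9 enzymes of hormone synthesis: phm, dib, sad, spo, spok, nvd and sro, which act in the prothoracic gland, shd, which acts in target tissues, and jhamt, which acts in the corpora allata. The rule picked them by gene name, with no threshold on a measured value, to judge how much ring gland RNA each lymph gland library held. All 9 were found by exact symbol among the 17490 genes counted in each library. Of the 9, 8 passed the filter on low values that 9056 genes passed, and spo did not.

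The lymph gland, the blood-forming organ of the larva, was taken from Oregon-R larvae, a wild-type laboratory strain, in steady state without wasp infestation. Bulk RNA was sequenced at 72, 96 and 120 h after egg laying (AEL), with 1 library per time from many glands pooled, called the 72 h, 96 h and 120 h libraries below. Glands were left undissociated, and the dissection kept the primary lobes while the ring gland, the dorsal vessel and the posterior lobes were detached. The sources used here do not say how fully the ring gland was removed. In its single-cell libraries of lymph glands, the study set aside a subcluster with high phm as ring gland cells. All 3 libraries share strain, state and dissection and differ by the time of collection, so nothing below was checked against a replicate, and each comparison is one of libraries rather than of stages.

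In the fly larva the ring gland sits near the lymph gland on the dorsal vessel and joins several endocrine tissues. The prothoracic gland makes ecdysone from dietary sterols through the Halloween enzymes, the corpora allata make juvenile hormone, and the corpora cardiaca release peptide hormones. Ecdysone is turned into its active form in peripheral tissues, and pulses of that form drive molting and metamorphosis, while juvenile hormone opposes the change to the adult program.

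The labelled tissue was checked by its markers. All 9 hemocyte markers were above 0 in every library, with a summed level of 28843, 46699.8 and 48301 CPM (counts per 1000000 counts of a library, scaled by TMM) at 72, 96 and 120 h. Total counts ranged between 34278733 and 49511614 per library. Among genes with 1 to 20 counts, 69.6 to 72.0% of the counts were even, which single independent reads would not give, so the counting intervals below are too narrow. For the members, intervals from halved counts, as for read pairs, are given where they newly take in the 4-fold threshold or equal levels.

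Together the 9 genes held 38316 counts at 72 h, 12583 at 96 h and 6034 at 120 h. That was 0.0774, 0.0332 and 0.0176% of each library, or 739.9, 335.5 and 182 CPM. The summed level was 2.21-fold lower in the 96 than in the 72 h library (exact 95% interval of the ratio of Poisson counts, 2.16 to 2.25, counting error only). It was 1.84-fold lower in the 120 than in the 96 h library (1.79 to 1.90) and 4.06-fold lower in the 120 than in the 72 h library (3.95 to 4.18). sro had a higher level in each later library, and without it the summed level was 2.44-fold, 2.30-fold and 5.61-fold lower in the same comparisons. CPM are shares of a library, and in bulk RNA fewer cells of a type and less RNA per cell cannot be told apart.

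A gene was called when its level on the log2(CPM + 1) scale differed by at least 4-fold, a scale that understates the change of low genes. Between the 96 h and 72 h libraries, 2 of the 8 genes were called lower (dib and jhamt), against 8.62% of all genes tested, and 0 were called higher, against 1.2%. Between the 120 h and 96 h libraries none of the 8 was called in either direction, where 0.0663% of all genes tested were called lower and 0.188% higher. Between the 120 h and 72 h libraries, 5 of the 8 were called lower (dib, jhamt, phm, sad and spok), against 9.68%, and 1 was called higher (sro), against 2.11%. The median log2 ratio of the 8 genes was -1.002, -0.91 and -2.24 in the 3 comparisons, beside -0.02, 0.00 and -0.04 for all genes tested. These 3 comparisons share libraries, so their counts are not independent of each other.

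At a 2-fold threshold, 4 of the 8 were lower in the 96 than in the 72 h library, against 19.5% of all genes tested, and 1 was higher (sro), against 4.76%. In the 120 against the 96 h library, 3 of the 8 were lower by that threshold (jhamt, phm and spok), against 1.12%, and 0 were higher, against 1.47%. In the 120 against the 72 h library, 6 of the 8 were lower, against 20.7%, and 1 was higher (sro), against 7.39%. The lowest 5% of all genes tested lay below -2.66, -0.46 and -2.80 on the log2 scale in these comparisons. That range held 1, 5 and 2 of the 8 genes. For 120 against 96 h, all genes tested include some near 0 CPM in both libraries, whose ratios this scale holds near 0. How much such genes narrow the range was not tested. The 5 in the 120 h against 96 h comparison were spok, jhamt, phm, sad and nvd, with 0.331, 0.442, 1.04, 1.33 and 1.57% of all genes tested below them, although none of their folds there reached 4-fold.

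**Figure D1:**
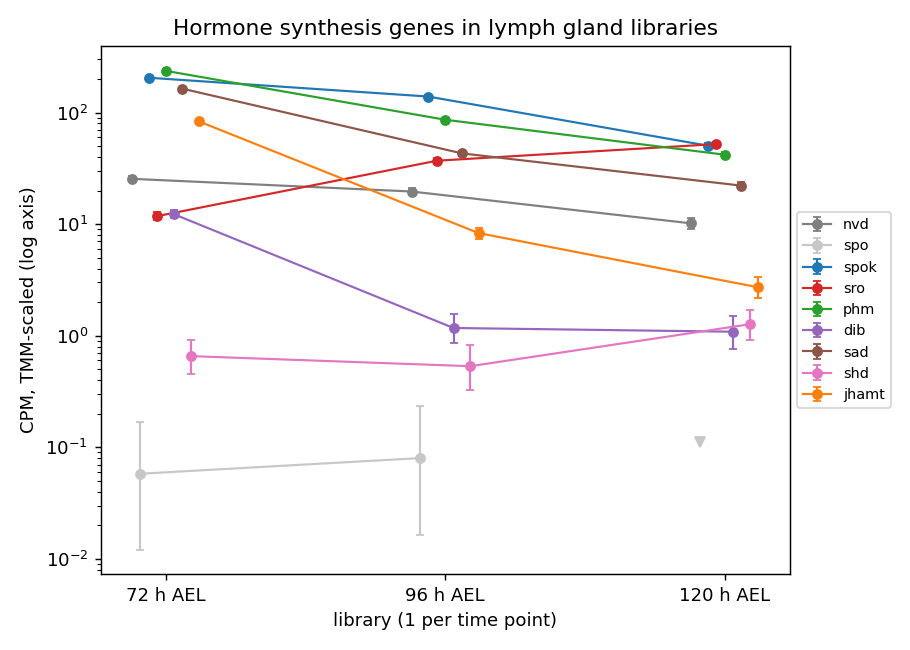
Levels of the 9 hormone synthesis genes in the lymph gland libraries of 72, 96 and 120 h after egg laying (x axis) in CPM on a log axis (y axis), with 1 library per time and bars for the exact 95% counting interval. The downward triangle for spo at 120 h marks the upper limit of a count of 0, and sro is the member that lies higher at each later time.

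The pathway opens with nvd, the Rieske-type oxygenase that makes the first intermediate from cholesterol. nvd (chromosome arm 3L, 24324866 to 24401655, plus strand, Ensembl BDGP6.54, as for all coordinates here) had 1320 counts at 72 h, 736 at 96 h and 337 at 120 h, or 25.5, 19.6 and 10.2 CPM. Its level was 1.30-fold lower at 96 than at 72 h (1.19 to 1.42) and 1.93-fold lower at 120 than at 96 h (1.69 to 2.20). Across the whole interval it was 2.51-fold lower at 120 than at 72 h and was not called (log2 ratio -1.25). Of the members with a lower level at 120 than at 72 h that passed the filter, nvd was the only one not called.

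spok and spo are related cytochrome P450 genes that act in the steps after nvd, known as the black box because the intermediates are not settled. In flies spok is the larval prothoracic gland gene, and spo is used in the embryo and the ovary. spok (chromosome arm 3R, 3322810 to 3354486, plus strand) had 10638 counts at 72 h, 5224 at 96 h and 1674 at 120 h, or 205.4, 139 and 50.5 CPM. It differed by less between the 96 h and 72 h libraries (1.47-fold lower, 1.43 to 1.52) than between the 120 h and 96 h libraries (2.76-fold lower, 2.61 to 2.92), and these counting intervals do not overlap. It fell 4.07-fold at 120 against 72 h, a value just past the threshold whose interval of 3.86 to 4.28 reaches below it.

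spo (chromosome arm 3L, 5590083 to 5592571, minus strand) had 3 counts at 72 h, 3 at 96 h and 0 at 120 h. A count of 3 was worth 0.0579, 0.0800 and 0.0905 CPM in these libraries, so spo was at or under the floor in each and no fold is given. The larval gene of the pair therefore carried nearly all of their counts, although spo shares 308 exonic bases with l(3)psg2 on the opposite strand, and reads shared by related genes may have been assigned or dropped.

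sro, a short-chain dehydrogenase of the same black box steps, was the member with a higher level at each later time. sro (chromosome arm 3R, 29794597 to 29795805, plus strand) had 611 counts at 72 h, 1389 at 96 h and 1731 at 120 h, or 11.8, 37.0 and 52.2 CPM. Its level was 3.14-fold higher at 96 than at 72 h (2.85 to 3.46) and 1.41-fold higher at 120 than at 96 h (1.31 to 1.51). It rose 4.43-fold at 120 against 72 h (4.03 to 4.86), but with halved counts the interval was 3.89 to 5.07. Under total-count scaling its log2 ratio was 1.95 at 120 against 72 h, which is below the threshold, and the direction held.

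sro shares 109 of its 1154 exonic bases with Rnb, a gene on the opposite strand. Rnb had 1113, 831 and 818 counts at 72, 96 and 120 h, or 21.5, 22.2 and 24.7 CPM. Whether counting used strand is not given in the sources used here, and the part of shared reads in the sro values was not tested.

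phm, dib and sad are the cytochrome P450 enzymes of the last steps to ecdysone, each adding a hydroxyl group to the sterol, phm in the endoplasmic reticulum and dib and sad in the mitochondrion. phm (chromosome X, 18685766 to 18688433, plus strand) had 12273 counts at 72 h, 3238 at 96 h and 1390 at 120 h, or 237, 86.3 and 41.9 CPM. Its level was 2.75-fold lower at 96 than at 72 h (2.64 to 2.85) and 2.06-fold lower at 120 than at 96 h (1.93 to 2.19). It fell 5.65-fold at 120 against 72 h (5.34 to 5.98), with no step of 4-fold. Its symbol differs only by case from that of Phm, the peptidylglycine alpha-hydroxylating monooxygenase, which had 6991, 6121 and 5643 counts and is no hormone synthesis gene of this pathway.

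sad (chromosome arm 3R, 11877235 to 11879754, plus strand) had 8490 counts at 72 h, 1617 at 96 h and 734 at 120 h, or 164, 43.1 and 22.1 CPM. It was 3.80-fold lower at 96 than at 72 h (3.61 to 4.01) and 1.95-fold lower at 120 than at 96 h (1.78 to 2.13). It fell 7.40-fold at 120 against 72 h (6.86 to 7.99). Of its 1773 exonic bases, 53 are shared with CG6962 on the opposite strand, which had 1380, 1073 and 774 counts at 72, 96 and 120 h. The counting intervals of sad, phm and nvd overlapped for 120 against 96 h, where the genes were 1.93-fold to 2.06-fold lower, and did not overlap for 96 against 72 h.

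dib (chromosome arm 3L, 4062292 to 4064551, plus strand) had 636 counts at 72 h, 44 at 96 h and 36 at 120 h, or 12.3, 1.17 and 1.09 CPM. It fell 10.5-fold at 96 against 72 h (7.71 to 14.6) and 11.3-fold at 120 against 72 h (8.08 to 16.3). Between the 120 h and 96 h libraries it was 1.08-fold lower, with an interval from 0.679 to 1.73, so no difference was detectable at this depth. dib was thus near its 120 h level in the 96 h library, and 400 of its 1975 exonic bases are shared with wit on the opposite strand, which had 108, 57 and 26 counts at 72, 96 and 120 h.

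shd, the P450 that turns ecdysone into its active form in target tissues, was near the floor. shd (chromosome arm 3L, 14614458 to 14622205, plus strand) had 34 counts at 72 h, 20 at 96 h and 42 at 120 h, or 0.657, 0.533 and 1.27 CPM, and passed the filter only through the 120 h library. Its level was 1.23-fold lower at 96 than at 72 h, with an interval of 0.689 to 2.26 that covered equal levels. It was 2.38-fold higher at 120 than at 96 h (1.36 to 4.27, or 1.07 to 5.65 with halved counts) and was not called. The 1.93-fold higher level at 120 than at 72 h had an interval of 1.199 to 3.13, which became 0.970 to 3.90 with halved counts and then covered equal levels.

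jhamt, the juvenile hormone acid methyltransferase of the corpora allata, had the largest fold of the 9 genes between the 120 h and 72 h libraries. jhamt (chromosome arm 2L, 16365903 to 16367039, plus strand) had 4311 counts at 72 h, 312 at 96 h and 90 at 120 h, or 83.2, 8.32 and 2.72 CPM. It fell 10.01-fold at 96 against 72 h (8.92 to 11.3) and 30.7-fold at 120 against 72 h (24.9 to 38.2). Between the 120 h and 96 h libraries it was 3.06-fold lower (2.42 to 3.92, or 2.19 to 4.37 with halved counts) and was not called.

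Levels between genes were compared per kilobase of exonic length. At 72 h spok and phm stood at 116 and 108 CPM per kb, rank 582 and 633 of 8869 genes. At 96 h spok had 78.8 and phm 39.2 CPM per kb, rank 836 and 1669. At 120 h spok had 28.6 and phm 19.0 CPM per kb, rank 2255 and 3146. sro moved the other way, with 10.2, 32.1 and 45.3 CPM per kb at 72, 96 and 120 h, rank 4523, 2032 and 1447, and was the highest of the 9 genes per kb at 120 h.

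**Figure D2:**
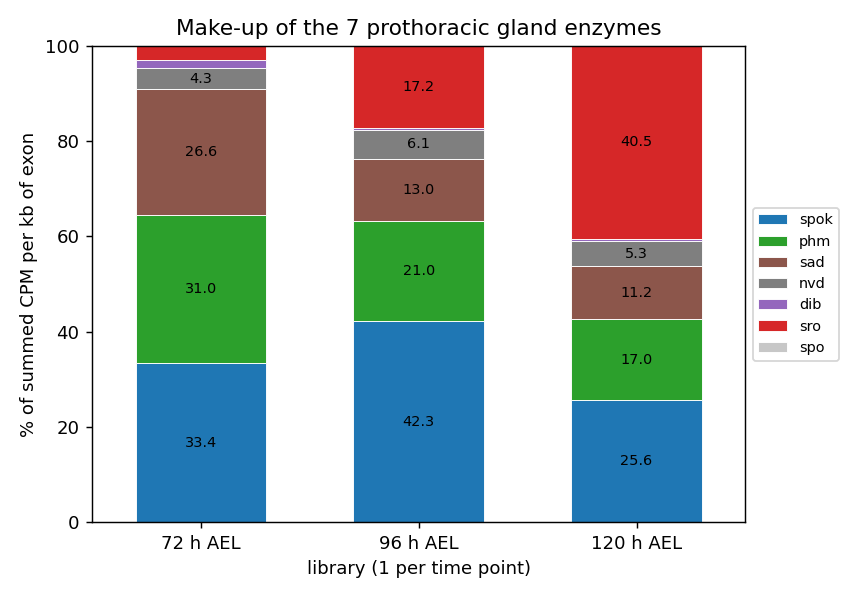
Make-up of the prothoracic gland enzymes per kb of exonic length at 72, 96 and 120 h after egg laying (x axis), as percent of their summed CPM per kb (y axis). sro took 2.94, 17.2 and 40.5%, and phm 31.0, 21.02 and 17.0%.

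The make-up of the prothoracic gland enzymes therefore differed between the libraries as well as their sum. spok took 33.4, 42.3 and 25.6% of their summed CPM per kb at 72, 96 and 120 h, and sad took 26.6, 13.0 and 11.2%. Ratios of counts within a library do not depend on the scaling between libraries. The phm count was 1.45 times that of sad at 72 h (1.41 to 1.49), 2.002 times at 96 h (1.89 to 2.13) and 1.89 times at 120 h (1.73 to 2.07). The spok count was 8.06, 7.10 and 4.97 times that of nvd at the 3 times. The sro count was 0.0498 times that of phm at 72 h, 0.429 times at 96 h and 1.25 times at 120 h (1.16 to 1.34), so the order of the pair turned round.

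**Figure D3:**
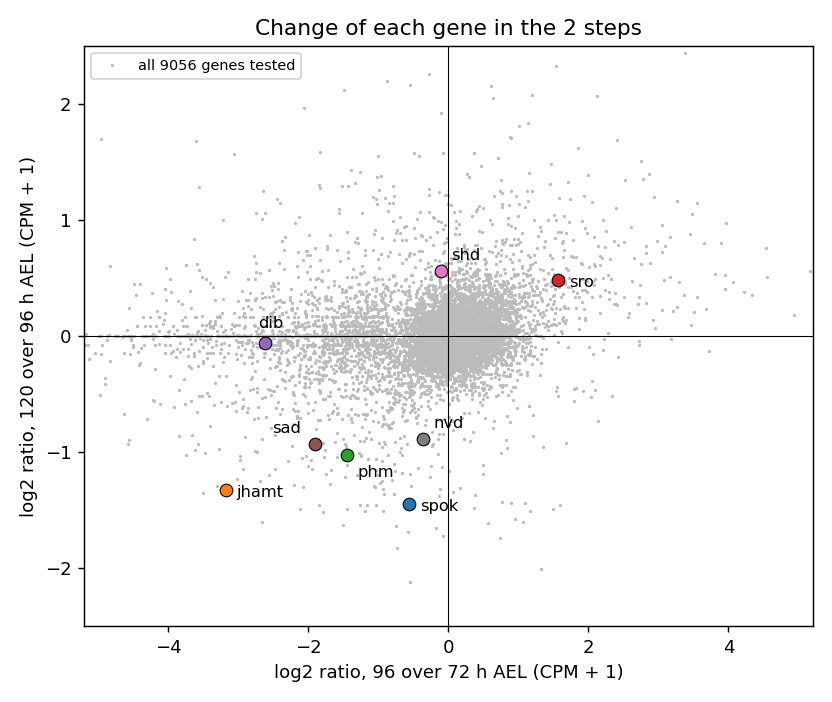
Change of all genes tested (grey) and of the 8 members that passed the filter (colored, named) as log2 ratio of 96 against 72 h (x axis) and of 120 against 96 h (y axis), both on the log2(CPM + 1) scale, with 62 genes outside the axes not drawn. jhamt lies at -3.18 and -1.33, phm at -1.45 and -1.02, dib at -2.61 and -0.06, and sro at 1.57 and 0.49.

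Genes that act around the members in the prothoracic gland were read from lists of their regulators and receptors. Of 7 regulators of the Halloween genes, 6 were matched and 5 passed the filter, of which 3 were called lower and 0 higher at 120 against 72 h. ouib, a zinc finger factor known for driving spok, had 773, 215 and 76 counts at 72, 96 and 120 h and fell 6.51-fold at 120 against 72 h (5.14 to 8.35). vvl, a POU domain factor needed for Halloween gene expression, had 2462, 474 and 240 counts and fell 6.56-fold (5.75 to 7.53). Hr4, a nuclear receptor, had 2210, 17 and 3 counts and fell 471-fold, with a wide interval of 161 to 2288. ftz-f1, another nuclear receptor and the regulator with the most counts at 72 h, had 3423, 1879 and 1618 counts and was not called.

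Of 7 genes of prothoracic gland signaling, 6 passed the filter and 1 was called lower at 120 against 72 h. This was tor, the receptor of prothoracicotropic hormone, with 553, 57 and 26 counts at 72, 96 and 120 h, which fell 13.6-fold (9.19 to 21.02). babo, the activin type I receptor and the one with the most counts at 72 h, had 4611, 5211 and 4614 counts and was not called. All 8 genes of sterol supply and electron transfer passed the filter and none was called in any comparison. In that list Npc1a, which moves sterol out of endosomes in many cell types, had the most counts at 72 h, with 18614, 7679 and 7531.

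Of 4 genes of ecdysteroid transport and inactivation, 3 passed the filter. Oatp74D, the ecdysone importer of target cells, had 3057, 8635 and 8388 counts at 72, 96 and 120 h and rose 4.29-fold at 120 against 72 h (4.11 to 4.47), although under total-count scaling its log2 ratio was 1.97, below the threshold. Cyp18a1, which breaks down the active hormone, had 980, 21 and 2 counts and fell 314-fold, with an interval of 86.6 to 2593. The importer of ecdysone and the enzyme that breaks down its active form were thus called in opposite directions.

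Of 8 genes of the mevalonate pathway and juvenile hormone synthesis, 7 passed the filter, and only Cyp6g2 was called, lower. Cyp6g2, a P450 of the corpora allata, had 5236, 541 and 223 counts at 72, 96 and 120 h and fell 7.01-fold at 96 against 72 h (6.41 to 7.67). The fold of jhamt in that comparison lay above this interval. At 120 against 72 h the median log2 ratio was -2.27 for the regulators, -0.64 for signaling, -0.05 for sterol supply, -0.88 for transport and inactivation and -1.09 for mevalonate and juvenile hormone synthesis, beside -0.04 for all genes tested. Hmgs, an enzyme of the mevalonate pathway that many tissues use and the one with the most counts at 72 h, had 8664, 2473 and 2351 counts and was not called.

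The members were then set beside other genes of the ring gland tissues. At 96 against 72 h the prothoracic gland enzymes other than sro and spo were between 1.30-fold (nvd) and 10.5-fold (dib) lower, and jhamt was 10.01-fold lower. Akh, the adipokinetic hormone of the corpora cardiaca, had 6373, 352 and 148 counts at 72, 96 and 120 h, and was 13.1-fold lower at 96 than at 72 h (11.8 to 14.6). At 120 against 96 h, nvd, spok, phm, sad, ouib, vvl, tor, jhamt, Cyp6g2 and Akh were all between 1.75-fold and 3.06-fold lower. dib at 1.08-fold lower, and sro and Lst at 1.41-fold and 1.36-fold higher, lay outside that range. Hr4, at 5.01-fold lower on 17 and 3 counts, also lay outside it. So did Cyp18a1 of the transport and inactivation list, lower at 120 than at 96 h on 2 and 21 counts (0.0604 and 0.560 CPM). ouib, vvl, tor, Cyp6g2 and Akh were named because they were called lower against 72 h, so they are not a free sample of their lists. The genes named for the most counts of their lists differed less at 120 against 96 h. ftz-f1 was 1.03-fold lower, and babo, Npc1a and Hmgs were 1.002-fold, 1.11-fold and 1.08-fold higher. gl, a zinc finger factor of the corpora cardiaca list, had 51, 118 and 12 counts at 72, 96 and 120 h, and was 8.69-fold lower at 120 than at 96 h. Lst, the limostatin hormone of the corpora cardiaca, and gl were named after their values were seen and were called in no comparison.

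**Figure D4:**
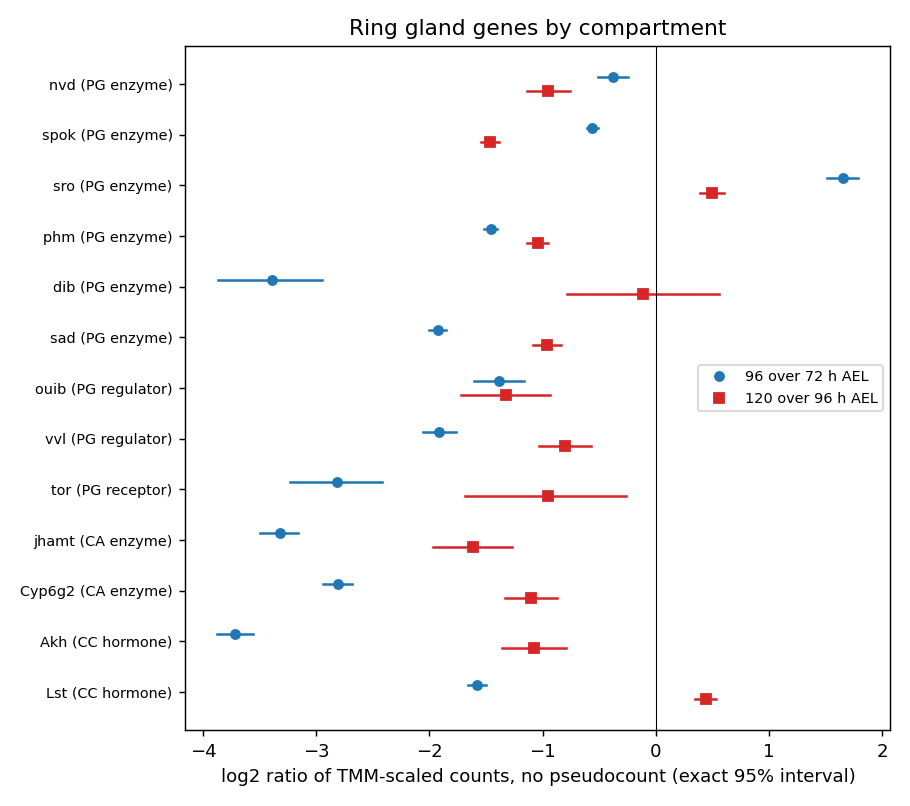
Fold difference of genes of the prothoracic gland (PG), corpora allata (CA) and corpora cardiaca (CC) (rows) in 96 against 72 h and in 120 against 96 h, as log2 ratio of scaled counts without pseudocount (x axis), with exact 95% counting intervals. Akh, dib and jhamt lie farthest to the left for 96 against 72 h, while sro is to the right of 0 in both steps.

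As counts within a library, phm was 2.85 times jhamt at 72 h (2.75 to 2.95), 10.4 times at 96 h (9.24 to 11.7) and 15.4 times at 120 h (12.5 to 19.3). Against Akh, phm was 1.93, 9.20 and 9.39 times at the 3 times. Both ratios were lower in the 72 h library than in the other libraries, and the scaling between libraries does not enter them. This was not particular to pairs from different tissues. At the 3 times phm was 22.2, 56.8 and 53.5 times tor, and sad was 13.3, 36.8 and 20.4 times dib. The ratio of phm to spok went the other way, at 1.15, 0.620 and 0.830.

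Summed markers of several other tissues were also lower in the 96 h than in the 72 h library. The later step is harder to compare between lists, because the pseudocount draws the ratios of low genes toward 0. At 120 against 96 h the median log2 ratio was -0.91 for the members and -0.93 for the corpora cardiaca list. The latter is the value of Akh alone, the middle of 3 genes, with gl at -1.61 and Lst at 0.43. The median was -0.56 for dorsal vessel and muscle, -0.08 for neuron and 0.0 for midgut markers. The midgut value was fixed, as those markers had 0 counts in both libraries. Neuron markers other than elav were under 1 CPM at 96 h. Without pseudocount, nSyb and para were each 2.02-fold lower (16 and 7 counts) and ChAT 1.77-fold lower (8 and 4 counts). By the same measure elav was 1.06-fold lower and Syt1 1.07-fold higher, while brp had 0 and 4 counts and VGlut 0 and 2. Of 8 dorsal vessel and muscle markers, 6 were called lower at 96 against 72 h and at 120 against 72 h, with a summed level of 2736, 188 and 131 CPM at 72, 96 and 120 h. Of 7 neuron markers, 5 were called lower in both comparisons, with a summed level of 103, 9.97 and 9.17 CPM. Of 5 midgut markers, all were above 0 at 72 h and all were at 0 at 96 and 120 h, with a summed level of 265 CPM at 72 h. Jon65Aiv and Jon25Bi held 9079 and 4609 of their 13732 counts at 72 h, and only these 2 passed the filter. The corpora cardiaca list of 3 summed to 257, 57.1 and 65.4 CPM, and 1 of them, Akh, was called lower.

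Some markers of other lists were called higher. Of 6 fat body markers, 4 were called higher at 120 against 72 h, with a summed level of 141, 297 and 447 CPM at 72, 96 and 120 h. Of 9 hemocyte markers, 3 were called higher and 0 lower in the same comparison, and of 4 cuticle markers, which summed to 5.02, 21.2 and 19.6 CPM, 1 was called higher. The part of these tissues in the values of the hormone synthesis genes was not tested.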

How the data were processed

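For 1 bulk library per time point, the deposited values are whole-number counts of each gene, to which no normalization was applied. The submitters' processing notes name FastQC 0.11.8, STAR 2.5.3a, featureCounts 1.6.0 and BDGP6, with no role given. The use of strand, the treatment of multi-mapping reads and the counting of mates are not given in the sources used here.

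Libraries were grouped by the time in the labels. CPM were scaled with edgeR 4.0.16 (TMM, on the 9056 genes that reached 1 CPM in any library), and log2 ratios used a pseudocount of 1 CPM. A call was a ratio of at least 4-fold. With 1 library per time no test across libraries was run. Folds used scaled counts without pseudocount, with exact (Clopper-Pearson) 95% intervals, and none is given where both counts were at or under 3. Intervals hold counting error alone, as PCR copies do not count separate molecules. Of 17490 identifiers, 17216 matched Ensembl release 115, and nvd was matched by symbol because its identifier there differs.

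The members and lists were chosen with earlier results of these data known. Genes named were the members, the called members of each list with the one of most counts at 72 h AEL, Phm, and the 5 genes nearest to phm in both steps. Genes sharing exons with a member, Lst, gl and Jhe were named after their values were seen. Alternatives were total-count scaling, DESeq2 1.42.0 size factors, pseudocounts of 0.1 and 5 CPM, filters of 10 CPM and none, thinned counts, spo and spok as 1 gene, the 7 prothoracic gland enzymes alone, a 2-fold threshold and interval rules. The set without sro was added after the data were seen.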

Additional observations from a re-analysis of the deposited data

How the results depend on the processing

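With 1 library per time, leaving out a replicate was not possible, and counting error is the only error given. No paired analysis was possible because each time point has 1 library. Of 135 comparisons of a single member with an alternative, 130 kept their direction and side of the 4-fold threshold, 5 lost the call and 0 reversed. The 135 include those of spo, which did not pass the filter, and those of members not called at first, which had no call to lose. The calls lost were those of sro at 120 against 72 h AEL (1.95 with total-count scaling, 1.77 with a pseudocount of 5 CPM), and, with that pseudocount, dib in both comparisons with 72 h AEL (-1.49 and -1.51) and spok at 120 against 72 h AEL (-1.92). A larger pseudocount shrinks the ratios of low genes by construction.

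For 96 against 72 h AEL, the median log2 ratio of the members was -1.08 with total-count scaling, -1.45 with a filter of 10 CPM or without sro, and -0.56 with no filter. The summed log2 ratio was -1.22 with total-count scaling, -1.17 with DESeq2 size factors, -1.01 for the 7 prothoracic gland enzymes and -1.29 without sro. Members called lower numbered 1 with a pseudocount of 5 CPM or for the 7 enzymes, and 4 at 2-fold, where 1 was called higher. For 120 against 96 h AEL, the median was -0.74 with a pseudocount of 5 CPM, the summed ratio was -1.20 without sro, and 3 members were lower at 2-fold. For 120 against 72 h AEL, the median was -2.35 with total-count scaling, -2.47 with a filter of 10 CPM or without sro, -2.00 with no filter, and -1.71 with a pseudocount of 5 CPM. The summed ratio was -2.14 with total-count scaling, -1.88 for the 7 enzymes and -2.49 without sro. Members called lower there numbered 3 with a pseudocount of 5 CPM. Members called higher numbered 0 with total-count scaling, with that pseudocount, with intervals of halved counts past 4-fold, and without sro. The filters and member sets change which genes enter a median or sum, and the cause of the other shifts was not tested.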

Other observations

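Of 9 genes that receive, respond to or break down juvenile hormone, 8 passed the filter and 0 were called in any comparison, beside the 30.7-fold lower jhamt at 120 than at 72 h AEL. Jheh2, an epoxide hydrolase that breaks down juvenile hormone and the one with the most counts at 72 h AEL, had 11301, 16100 and 15566 counts at 72, 96 and 120 h AEL. The 120 h level was 2.15-fold that at 72 h AEL, under the 4-fold threshold. Jhe, a juvenile hormone esterase named after its values were seen, had 143 counts at 72 h AEL and 0 in both later libraries, a level at least 30.5-fold lower at 120 than at 72 h AEL (0 set to the floor of 3 counts), which was not called on the log2(CPM + 1) scale. The median log2 ratio of this list was 0.51 at 120 against 72 h AEL, beside -0.04 for all genes tested.

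The genes with log2 ratios nearest to those of phm over both steps, by distance in the log2 plane, were CG43778, pot, CG34398, CadN and Cyp311a1, at distances of 0.0546, 0.0612, 0.0650, 0.0771 and 0.0843. They were sought among 8773 genes with at least 50 counts at 72 h AEL and rest on 3 libraries. Of the genes searched, 67 lay within 0.5 log2 of phm, so these 5 are the nearest of many. CG43778 had 0 counts at 120 h AEL, so its place depends on the pseudocount. CadN, a cadherin best known from neurons, had 818, 192 and 72 counts at 72, 96 and 120 h AEL. pot, an extracellular matrix gene known from epidermal attachment, had 1297, 334 and 132 counts. None of the 5 is a gene of hormone synthesis on the lists used here.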
